A study of Mus musculus with 12 samples.

Results

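The miR-181 family was followed in carotid arteries of apoE-/- mice, which lack apolipoprotein E and form arterial plaques when fed fat. The family was taken as every assay of the quantitative PCR table whose name starts with mmu-miR-181. This gave 3 of the 513 miRNA assays with values, namely miR-181a, miR-181c and miR-181a-1*, where the star marks the less abundant arm of a hairpin under the older naming. The arteries were 6 partially ligated left carotid arteries, labelled atherosclerotic, and 6 untreated right carotid arteries, labelled non-atherosclerotic. All came from female apoE-/- mice that were 6 to 8 weeks old and then spent 6 weeks on a high-fat diet (21% crude fat and 0.15% cholesterol), so the untreated arteries carry the same deletion and had the same diet. Partial ligation closes most outlets of the common carotid artery and lowers and disturbs its flow. The series text gives 6 mice, which fits a left and a right artery from each, but the labels do not say which arteries belong together.

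miR-181 miRNAs are short RNAs that guide the silencing complex to messenger RNAs, chosen mainly by the seed, which is bases 2 to 8 of the mature strand. In lymphocytes miR-181a is known for tuning antigen receptor signalling during T cell development. In endothelium miR-181b is known for limiting NF-κB signalling by repressing importin-α3, a carrier that takes NF-κB into the nucleus. Such a hairpin gives a guide strand from one arm, and the other arm is usually degraded faster.

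Mature sequences are shown because they tell which of the family's strands the 3 assays name. They were taken from RefSeq on GRCm38.p6, are written 5′ to 3′, and have the seed in capitals. All 3 assays matched an entry by name, with the starred assay matched to the 3p arm of Mir181a-1.
miR-181a-5p, the assay miR-181a: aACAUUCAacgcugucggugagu
miR-181c-5p, the assay miR-181c: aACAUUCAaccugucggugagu
miR-181b-5p, not analysed here: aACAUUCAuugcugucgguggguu
miR-181d-5p, not analysed here: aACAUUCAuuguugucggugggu
miR-181a-1-3p, the assay miR-181a-1*: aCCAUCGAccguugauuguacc
miR-181a-2-3p, not analysed here: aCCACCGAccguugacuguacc
The 4 guide strands shared 1 seed, and among the 1679 mature names in the RefSeq table no name outside the family had it. miR-181a and miR-181c shared their first 10 and last 12 bases, and miR-181a has 1 extra base, at position 11 from the 5′ end. Whether either assay also reads the other miRNA was not tested. miR-181a-1-3p and miR-181a-2-3p differed by U5C and U16C, counted from the 5′ end with the base of miR-181a-1-3p first. U5C lies in the seed, so the 3p strand of the first locus has another seed than that of the second locus, and shares its seed with miR-181c-3p.

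The family has 6 loci in the GRCm38.p6 gene table, in neighbouring pairs. Mir181a-1 lies on chromosome 1 at chr1:137966455-137966541, 97 bases from Mir181b-1, and no other gene of the table overlaps it. Mir181a-2 lies on chromosome 2 at chr2:38852735-38852810, inside the spans of Nr6a1 and Nr6a1os. Mir181c lies on chromosome 8 at chr8:84178873-84178961, 85 bases from Mir181d, and also overlaps no other gene of the table. The mature miR-181a strand is the same from Mir181a-1 and Mir181a-2, so its assay cannot tell these loci apart, while miR-181a-1* names a strand of Mir181a-1 alone. The hairpin of Mir181a-1, 87 bases on the plus strand of chromosome 1, is shown with both arms in capitals because the assays miR-181a and miR-181a-1* name its opposite arms.
Mir181a-1: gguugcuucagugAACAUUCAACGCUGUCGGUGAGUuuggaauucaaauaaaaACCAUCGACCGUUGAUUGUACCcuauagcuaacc
The arms occupy bases 14 to 36 and 54 to 75 of the hairpin, with 17 bases between them.

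The measured value is the threshold cycle (Ct), the PCR cycle at which product is first seen, so a lower Ct means more RNA and 1 cycle stands for a 2-fold difference if product doubles each cycle. Ct values of 40 mark wells without product, and a Ct below 35 was called detected. Between 330 and 357 assays were detected per ligated sample, against 317 to 341 per untreated sample. Levels are log2 values, obtained as minus Ct after subtracting a sample mean. That mean was taken over the 283 miRNAs found in every sample and lay between 23.33 and 25.20 in ligated samples and between 24.45 and 26.43 in untreated samples. Samples numbered 1 to 3 stood apart from samples numbered 4 to 6 on the first principal component of the 339 tested assays (34.9% of variance), so differences are also given within each set. Ligated samples 5 and 6 were the closest pair of all, with a mean difference in level of 0.330 cycles over the 283 miRNAs and equal Ct values in 0 of them. They are labelled as separate replicates, and the series text gives 6 biological replicates a group. Why they lie so close was not tested. The replicate numbers name samples in no order. p-values set a group difference against the spread between these arteries, which holds the gap between the sets where these are pooled without a block. Unpaired p-values treat the arteries as independent, although the series text gives 6 mice.

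The 3 miR-181 assays were detected in 6 of 6 ligated and 6 of 6 untreated arteries, and none passed limma's test for a difference. Unadjusted p-values in this unpaired limma fit were 0.583 for miR-181a, 0.956 for miR-181c and 0.303 for miR-181a-1*. miR-181a had a log2 fold change of 0.26, miR-181c of -0.02 and miR-181a-1* of -0.59, ligated minus untreated, each smaller than the spread between the arteries of a group. Across the 339 tested assays, 42 passed, which is 12.4%, with 25 higher (7.37%) and 17 lower (5.01%) in ligated arteries. Leaving out single samples moved these counts to 15 higher without untreated 6 and to 10 or 11 lower without untreated 1, 3, 4 or 6 or ligated 5 or 6. No sample left out gave a call for any of the 3 miR-181 assays. In these whole arteries, fewer cells of a type and less RNA per cell cannot be told apart.

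miR-181a, the guide strand made from the loci on chromosomes 1 and 2, was the earliest of the 3 to amplify. Its Ct was 20.63, 21.98, 22.03, 21.72, 21.03 and 20.95 in ligated arteries 1 to 6, against 22.12, 22.72, 22.97, 22.93, 22.40 and 22.69 in untreated arteries 1 to 6. Every ligated artery had a lower raw Ct than every untreated artery, but the tested assays as a whole also amplified earlier in ligated arteries, with a median raw difference of 0.93 cycles against 1.25 for miR-181a. After scaling, the log2 level was 2.70, 2.21, 2.01, 3.49, 4.00 and 4.06 in ligated arteries, against 2.87, 1.73, 2.08, 3.50, 3.25 and 3.47 in untreated arteries. The groups then overlapped, whereas 7.08% of the tested assays had levels that did not, and the highest levels were those of ligated 5 and 6. The mean level was 3.08 ± 0.90 in ligated and 2.82 ± 0.75 in untreated arteries (SD, n = 6 each). limma's moderated test gave it a log2 fold change of 0.26 ± 0.46 (SE), at an adjusted p of 0.821. The 95% interval of the fold change ran from 0.596 to 2.41 in this unpaired fit, and so held decreases, no change and increases. The unscaled Ct values gave a log2 difference of 1.25 and an adjusted p of 0.0199 in limma.

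miR-181c, the guide strand of the chromosome 8 pair, differed least. Its Ct was 25.33, 26.63, 26.73, 26.70, 26.26 and 26.56 in ligated arteries 1 to 6, against 26.76, 27.42, 27.20, 27.71, 26.91 and 28.00 in untreated arteries 1 to 6. The log2 level was -2.00, -2.43, -2.69, -1.49, -1.24 and -1.55 in ligated arteries, against -1.78, -2.97, -2.16, -1.28, -1.25 and -1.85 in untreated arteries. High and low arteries were found in both groups, and the lowest of all was untreated 2. The mean level was -1.90 ± 0.57 in ligated and -1.88 ± 0.64 in untreated arteries (SD, n = 6 each). The log2 fold change was -0.02 ± 0.35 (SE) in limma, with an adjusted p of 0.985 and a 95% interval of the fold change from 0.578 to 1.68. By size of difference it stood at 332 of the 339 assays, miR-181a at 246 and miR-181a-1* at 142. The median absolute log2 difference over the tested assays was 0.46.

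miR-181a-1*, the opposite arm of the Mir181a-1 hairpin, had the largest difference of the 3. Its Ct was 26.20, 28.20, 28.81, 27.09, 27.87 and 27.74 in ligated arteries 1 to 6, against 27.79, 28.36, 28.55, 28.17, 27.51 and 27.93 in untreated arteries 1 to 6. Scaled, the log2 level was -2.87, -4.01, -4.77, -1.89, -2.84 and -2.73 in ligated arteries, against -2.81, -3.91, -3.50, -1.74, -1.85 and -1.77 in untreated arteries. The groups overlapped over all 12 arteries, while among numbers 4 to 6 every ligated artery was below every untreated artery. In that set the groups of 3 did not overlap for 54.6% of the tested assays, against 21.2% among numbers 1 to 3. The mean level was -3.18 ± 1.03 in ligated and -2.60 ± 0.95 in untreated arteries (SD, n = 6 each). limma gave a log2 fold change of -0.59 ± 0.55 (SE), an adjusted p of 0.594 and a 95% interval of the fold change from 0.292 to 1.52. In same-numbered comparisons the ligated artery was lower in 6 of 6, and 23.6% of the tested assays had 1 sign in all 6. A replicate block in limma gave a standard error of 0.23, an unadjusted p of 0.0405 and an adjusted p of 0.148. With the number sets as the block instead, limma gave a standard error of 0.32, an unadjusted p of 0.0973 and an adjusted p of 0.231.

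**Figure D1:**
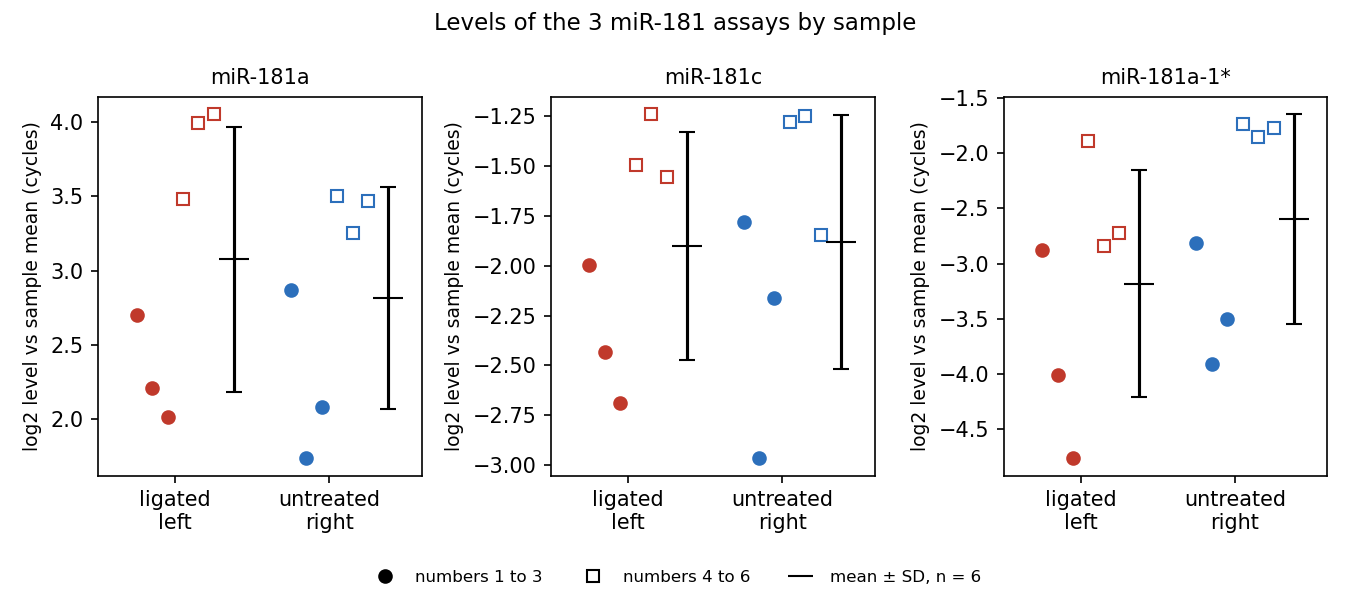
Log2 level of each miR-181 assay (vertical axis, cycles relative to each sample's own mean, separate scale per panel) in ligated left and untreated right arteries. Filled circles are numbers 1 to 3, open squares numbers 4 to 6, and black bars the mean ± SD of 6 arteries. The groups overlap in every panel, and the squares lie mostly above the circles in both groups.

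For each of the 3 assays the gap between the number sets was larger than the difference between ligated and untreated arteries. The mean level of miR-181a was 3.63 in the 6 arteries numbered 4 to 6 and 2.27 in those numbered 1 to 3, a gap of 1.36 with no overlap, as in 22.4% of the tested assays. For miR-181a-1* the gap was 1.51 and for miR-181c 0.89, with overlap, against a median absolute gap of 0.90 over the tested assays. Within numbers 1 to 3, the log2 difference of ligated minus untreated arteries was 0.08 for miR-181a, -0.07 for miR-181c and -0.48 for miR-181a-1*. Within numbers 4 to 6 it was 0.44 for miR-181a, 0.03 for miR-181c and -0.70 for miR-181a-1*. limma called none of the 3 within either set, with adjusted p-values between 0.111 and 0.961, where it called 1.47% of the tested assays among numbers 1 to 3 and 29.8% among numbers 4 to 6. An interaction term of ligation and set had an adjusted p of 0.795 for miR-181a, 0.943 for miR-181c and 0.925 for miR-181a-1* in limma. With the sets as a block, the standard error of miR-181a was 0.22 and its adjusted p 0.428 in limma. The pooled SD within a group was 0.826 for miR-181a, 0.605 for miR-181c and 0.993 for miR-181a-1*, beside a median of 0.796 over the tested assays.

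**Figure D2:**
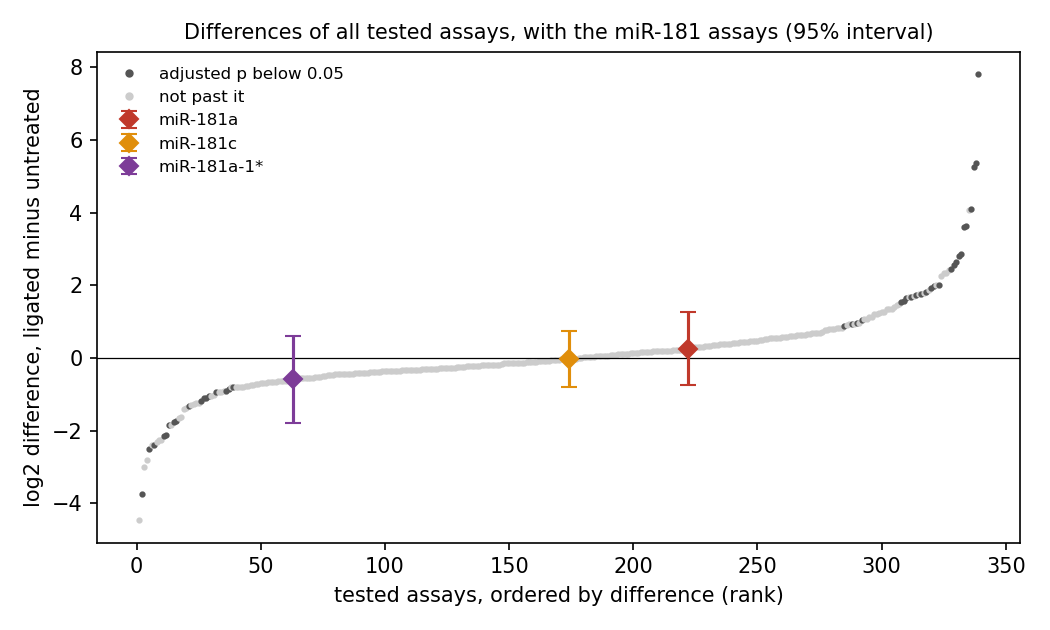
Log2 difference, ligated minus untreated (vertical axis), of the 339 tested assays ordered by size (horizontal axis). Dark dots passed an adjusted p of 0.05 in limma, light dots did not, and diamonds with 95% intervals are the miR-181 assays, which all cross 0.

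Ratios between the 3 assays were compared within each sample, where the scaling cancels. They are given as log2 differences between assays, and the size of a ratio depends on the efficiency of each assay, so only its change between groups is read. miR-181a-1* minus miR-181a was -5.57, -6.22, -6.78, -5.37, -6.84 and -6.78 in ligated arteries 1 to 6, against -5.68, -5.64, -5.58, -5.24, -5.11 and -5.24 in untreated arteries 1 to 6. Ligated 2, 3, 5 and 6 lay below every untreated artery, while ligated 1 and 4 lay within the untreated range. The mean was -6.26 ± 0.65 in ligated and -5.41 ± 0.25 in untreated arteries (SD, n = 6 each), a change of -0.85 ± 0.29 (SE) on the log2 scale, or 0.556-fold. An exact two-sided permutation test over all splits of the 12 arteries gave p = 0.0216, and an adjusted p of 0.0649 over the 3 ratios. With single arteries left out, the exact permutation adjusted p passed only without ligated 1 (0.0390) or ligated 4 (0.0260), which lay within the untreated range. It ran up to 0.117 with other arteries left out. With same-numbered arteries paired, an exact sign-flip test gave p = 0.0625 and an adjusted p of 0.125. A sign-flip test of 6 pairs cannot go below 0.0312, so 1 ratio alone could not pass after adjustment (0.0938 at best). The change was -0.56 in the set numbered 1 to 3, with overlap, and -1.14 in the set numbered 4 to 6, without overlap. Starred and unstarred assays were also paired across the panel by name, where needed with the locus number of the starred name left out. Among these 53 pairs, 20.8% did not overlap in the first set and 35.8% in the second. Since miR-181a is also made from Mir181a-2, its ratio is not that of the arms of Mir181a-1 alone.

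The other ratios changed less. miR-181a-1* minus miR-181c had a mean of -1.28 ± 0.60 in ligated and -0.72 ± 0.50 in untreated arteries (SD, n = 6 each). Its change was -0.57 ± 0.32 (SE), with an exact permutation adjusted p of 0.153. With single arteries left out, this adjusted p passed only without ligated 4 (0.0487) and ran up to 0.260. Over the ligated arteries this ratio ran from -2.08 in ligated 3 to -0.39 in ligated 4, against -1.34 in untreated 3 to 0.08 in untreated 6. miR-181a minus miR-181c, the ratio of both guide strands, had a mean of 4.98 ± 0.38 in ligated and 4.70 ± 0.36 in untreated arteries (SD, n = 6 each). It changed by 0.28 ± 0.21 (SE), with an exact permutation adjusted p of 0.229, and was higher in the ligated artery in 5 of 6 same-numbered comparisons. None of the 3 ratios passed the threshold with all samples kept.

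**Figure D3:**
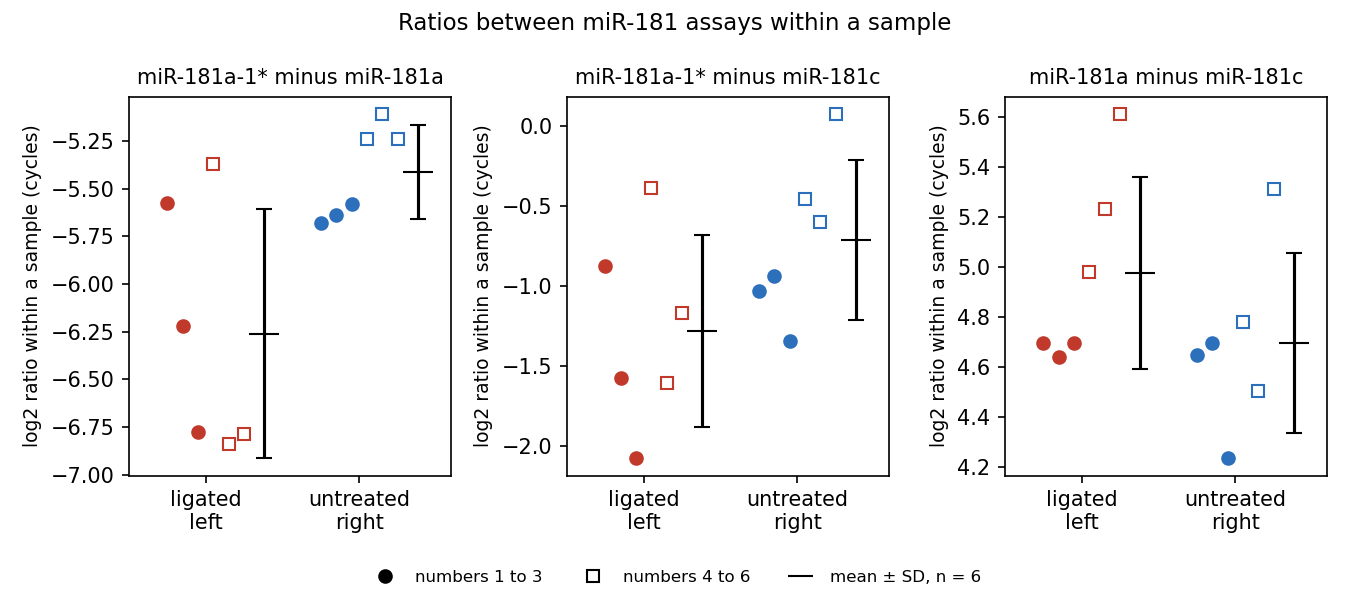
Log2 ratio of each pair of miR-181 assays within a sample (vertical axis, cycles, own scale per panel) in ligated left and untreated right arteries, with symbols and bars as in the plot of levels. In the left panel 4 of the 6 ligated arteries lie below all untreated arteries.

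The same kind of ratio was computed for all 53 pairs with both assays detected in all 12 samples. Of these, 39 had a change below 0 in ligated arteries, a count of signs that was not tested, and the median change was -0.34 on the log2 scale. The miR-181a pair, at -0.85, was the 11th lowest, between let-7g at -0.85 and miR-101a at -0.83. By size in either direction it ranked 12, so the 12 pairs with at least its change include itself. An exact permutation p below 0.05 was found for 30.2% of the pairs, 1.89% had groups that did not overlap, and 0 of the 53 passed after adjustment over the pairs. These shares stand beside the p of 0.0216 for the miR-181a pair. The ratios compare wells whose position in the assay set is not given. The 5 control RNAs with repeated rows differed between their rows by 0.642 cycles on average in a sample, and these row differences moved by at most 0.35 cycles between ligated and untreated arteries, and by up to 1.91 cycles, for Y1, between numbers 4 to 6 and numbers 1 to 3. Their part in the ratio was not tested.

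**Figure D4:**
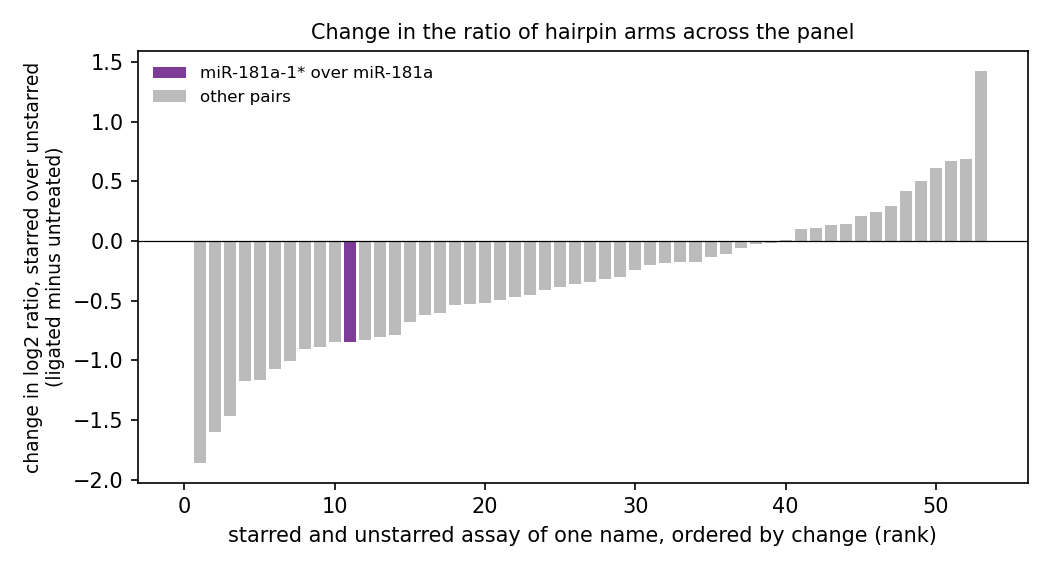
Change in the log2 ratio of starred over unstarred assay, ligated minus untreated (vertical axis), for 53 pairs ordered by size (horizontal axis). Bars start at 0, and the purple bar is miR-181a-1* over miR-181a at -0.85, among 39 pairs below 0.

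The assays whose profiles over the 12 samples were most like each member were found by the root-mean-square difference after each assay's own mean was subtracted, among 280 other assays detected in all samples. For miR-181a they were miR-350 and miR-467e (both 0.228 cycles), miR-130b (0.248), miR-324-5p (0.270) and miR-497 (0.287), against a median of 0.995 over the 280. For miR-181c they were miR-497 (0.282), miR-130a (0.285), miR-106b (0.290), miR-324-5p (0.294) and miR-130b (0.316), against a median of 0.847. miR-497, miR-324-5p and miR-130b thus stood near both guide strands. For miR-181a-1* they were miR-706 (0.238), miR-128a (0.312), let-7a* (0.327), miR-29a* (0.372) and miR-22* (0.388), against a median of 1.10. The profiles of miR-181a and miR-181c differed by 0.367 cycles, and those of miR-181a and miR-181a-1*, the opposite arms, by 0.619 cycles. Those of miR-181a-1* and miR-181c differed by 0.578 cycles. With the family counted in, miR-181c ranked 24 and miR-181a 29 among the 282 neighbours of miR-181a-1*, and miR-181c ranked 18 among those of miR-181a. All these profiles share the scaling and the gap between the number sets.

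Other miRNAs of the settings in which miR-181 is known were taken from lists that were chosen with earlier results of these data known. Of 14 tested miRNAs of vascular NF-κB signalling and inflammation, 4 rose in ligated arteries, none fell and 10 did not pass, with a median log2 fold change of 0.59. The 4 were miR-155, which activated macrophages and lymphocytes induce, miR-147, miR-21, widely induced in injured tissue, and miR-146a, which dampens NF-κB signalling. Their log2 fold changes were 2.44 ± 0.38 (SE) for miR-155, 4.10 ± 0.66 (SE) for miR-147, 2.86 ± 0.62 (SE) for miR-21 and 1.65 ± 0.40 (SE) for miR-146a, and the gaps between these and the miR-181 values were not tested. miR-147 was detected in 6 of 6 ligated and 1 of 6 untreated arteries, so it met the filter through the ligated arteries alone. The size and the p of its change, and so its place among the 4, depend on the value set for undetected wells. Of 13 tested miRNAs of lymphocyte development, 5 rose, among them miR-155 and miR-146a of the first list, none fell and 8 did not pass. Of all tested assays, 12.4% were called, 7.37% higher and 5.01% lower in ligated arteries. The median log2 fold change of the lymphocyte list was 0.46, beside -0.05 over all tested assays. miR-142-5p, miR-142-3p and miR-342-3p of this list were also the 3 of 5 leukocyte markers that rose. Of the 5 smooth muscle markers, 3 fell (miR-143, miR-145 and miR-1), and none of the 2 endothelial and 3 mesenchymal markers passed. The mean level over the 5 leukocyte markers lay between 3.49 and 4.54 in ligated arteries, against 1.99 to 2.55 in untreated arteries, with no overlap. That over the 5 smooth muscle markers lay between 2.94 and 4.94, against 4.55 to 6.64, with overlap. The endothelial and mesenchymal means overlapped too. How often other means over 5 assays do not overlap was not computed. A mean over 5 assays cannot be set beside the overlap of a single miR-181 assay. Of the leukocyte markers, miR-223 and miR-150 did not pass on their own (adjusted p of 0.0905 and 0.461 in limma).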

How the data were processed

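miRNAs were measured by quantitative PCR in RNA isolated with the mirVana kit, per the labels' protocols. Per the file headers, the authors deposited raw Ct values. The instrument was not given in the sources used here. It names 517 miRNA assays, of which 4 are blank, and 6 control RNAs. The deposited value table matched Ct scaled to U6 and snoRNA429 (averaged) to within 5e-05 cycles in all 513 rows compared.

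Undetected wells were set to 35 cycles, and an assay was tested where 4 or more of the 6 samples in either group had it. Levels were fitted with limma 3.58.1 (lmFit and eBayes, R 4.3.3), group as the only term, with Benjamini-Hochberg adjustment over 339 assays and a threshold of 0.05. The fit and permutation test were tested on simulated data. Ratios had exact permutation tests.

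After group means were subtracted, same-numbered samples correlated across assays with r of 0.283 to 0.622, so the numbers were also used as pairs. Within the number sets r lay between -0.26 and 0.226. The labels do not say that a number marks a mouse.

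Members, lists, number sets and settings were chosen with earlier results of these data known. Named assays were the family, the 5 nearest profiles, list members with the lowest p, and markers. The arm pairs across the panel, the repeated control rows and the principal components were looked at after the data were seen.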

Additional observations from a re-analysis of the deposited data

How the results depend on the processing

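No miR-181 assay was called in limma under any of the 29 alternatives except miR-181a with raw Ct (1.25 on the log2 scale, adjusted p 0.0199). That setting also turned miR-181a-1* to 0.40 and miR-181c to 0.97, with 57 assays higher and 0 lower and a median shift of 0.93. The difference of miR-181c, near 0, was above 0 at 0.0333 with all control RNAs, 0.0234 at a detection limit of 32, 0.0301 within numbers 4 to 6 and 0.0280 with array weights. Leaving out 1 sample moved miR-181c between -0.24 without untreated 2 and 0.14 without ligated 3, miR-181a between 0.04 and 0.47 and miR-181a-1* between -0.85 and -0.27, each at those same samples. Counts of higher and lower assays were 7 and 3 with U6 and snoRNA429 and 8 and 4 in the deposited value table. They were 5 and 0 in the set numbered 1 to 3 and 50 and 51 in the set numbered 4 to 6. With array weights they were 51 and 50, and with the sets as a block 37 and 30. Single samples left out gave 15 to 26 higher and 10 to 20 lower. With the replicate number as a block 30 were higher and 22 lower, and the block changed no call among the miR-181 assays: the blocked log2 differences were 0.26, -0.59 and -0.02 for miR-181a, miR-181a-1* and miR-181c. Single samples left out moved the ratio of miR-181a-1* to miR-181a between -1.02 and -0.73, that of miR-181a-1* to miR-181c between -0.75 and -0.41, and that of miR-181a to miR-181c between 0.15 and 0.40. Within a set of 3 against 3 the exact test cannot pass 0.05, nor can 1 ratio alone in the paired sign-flip test. Causes of these changes were not tested. Other detection limits left all 3 assays detected in 12 of 12 samples. The 6 arteries a group limit the precision.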
